A study of Mus musculus with 14 samples.

Results

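H3K27ac sites over coding exons outside promoters were examined in immortalised mouse embryo fibroblasts (iMEF). A site was included if its middle lay inside the coding sequence (CDS) of a protein-coding transcript. This middle also had to be over 3 kb from every annotated transcription start site (TSS) and over 1 kb from the 3′ end of the gene. Of 122228 sites in the list, 1157 (0.947%) fulfilled these criteria. They are called coding-exon sites below. The limits held for the middle only, and with their edges 35 of the 1157 sites (3.03%) came within 3 kb of a TSS, 1 of them with a TSS inside the site. The middle of 3965 sites was inside CDS, and 1209 of these were over 3 kb from a TSS before the limit at the 3′ end was applied. For comparison, 45187 sites had their middle in introns of protein-coding genes under the same distance limits, and 6135 of these were within 1 kb of CDS.

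The list came from chromatin immunoprecipitation with an antibody against H3K27ac, followed by sequencing. In the cells, exon 4 of both endogenous Ash2l alleles had been deleted with Cre-ER, and a lentiviral construct expressed human ASH2L with an FKBP tag. The small molecule dTAG leads to degradation of this fusion protein. H3K27ac libraries, 2 for each condition, were prepared from cells without dTAG and from cells after 30 min, 2 h, 4 h, 8 h and 16 h of dTAG, and 1 input library each came from cells without dTAG and after 16 h. All 14 libraries thus came from cells with the same deletion and the same transgene, and the study describes the cells as clone NG3, so that other clones were not covered. The sites of all samples had been joined into a single list without a value for individual samples. No change over time and no replicate error could therefore be given, and the read depth behind a site was unknown. Below, the 20 chromosomes (1 to 19 and X) served as units for the error of each comparison.

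H3K27ac is the acetylation of lysine 27 of histone H3. The mark is found at active promoters and enhancers, where acetylation of histone tails is associated with open chromatin and transcription. Enhancers are mostly located in introns and between genes, but some coding exons also serve as enhancers of their own or of neighbouring genes. The sequence of such an exon then has to encode amino acids and to be bound by transcription factors at the same time.

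To show what such sites look like, the DNA of 8 narrow sites is printed below from GRCm38.p6, 5′ to 3′ on the strand of the gene. They were taken from the genes with the most coding-exon sites or the widest ones, with 1 site per gene. Capitals mark CDS and lower case marks bases outside CDS, which are intron except in Col12a1, where they belong to an exon of another transcript.
Col12a1, exon 13, chr9:79692152-79692408, minus strand: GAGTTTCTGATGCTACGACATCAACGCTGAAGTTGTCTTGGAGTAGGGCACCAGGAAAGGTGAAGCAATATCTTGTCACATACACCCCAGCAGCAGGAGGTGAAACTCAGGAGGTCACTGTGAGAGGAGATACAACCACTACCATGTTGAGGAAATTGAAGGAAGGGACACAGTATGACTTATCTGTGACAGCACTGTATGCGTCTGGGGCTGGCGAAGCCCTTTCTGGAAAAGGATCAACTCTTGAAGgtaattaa
Col5a2, exon 2, chr1:45442609-45442825, minus strand: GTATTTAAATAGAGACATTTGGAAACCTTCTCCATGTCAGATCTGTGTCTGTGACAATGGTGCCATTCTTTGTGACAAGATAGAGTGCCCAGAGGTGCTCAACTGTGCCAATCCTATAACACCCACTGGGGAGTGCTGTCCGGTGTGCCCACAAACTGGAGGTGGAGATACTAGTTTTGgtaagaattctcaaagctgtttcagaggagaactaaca
Tnc, exon 20, chr4:63967210-63967475, minus strand: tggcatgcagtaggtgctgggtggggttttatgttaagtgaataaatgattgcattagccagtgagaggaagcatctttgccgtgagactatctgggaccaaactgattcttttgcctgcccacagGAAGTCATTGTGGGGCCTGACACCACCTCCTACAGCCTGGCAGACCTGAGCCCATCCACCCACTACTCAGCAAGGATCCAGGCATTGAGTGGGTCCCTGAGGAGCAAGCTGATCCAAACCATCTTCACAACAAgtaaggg
Syne1, exon 77, chr10:5228965-5229189, minus strand: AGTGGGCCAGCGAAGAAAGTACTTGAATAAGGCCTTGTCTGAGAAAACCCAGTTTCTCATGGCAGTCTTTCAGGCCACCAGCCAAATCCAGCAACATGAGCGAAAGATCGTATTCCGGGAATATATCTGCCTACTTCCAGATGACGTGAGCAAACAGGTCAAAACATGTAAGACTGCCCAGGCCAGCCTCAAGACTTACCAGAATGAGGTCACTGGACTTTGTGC
Fyco1, exon 17, chr9:123797458-123797752, minus strand: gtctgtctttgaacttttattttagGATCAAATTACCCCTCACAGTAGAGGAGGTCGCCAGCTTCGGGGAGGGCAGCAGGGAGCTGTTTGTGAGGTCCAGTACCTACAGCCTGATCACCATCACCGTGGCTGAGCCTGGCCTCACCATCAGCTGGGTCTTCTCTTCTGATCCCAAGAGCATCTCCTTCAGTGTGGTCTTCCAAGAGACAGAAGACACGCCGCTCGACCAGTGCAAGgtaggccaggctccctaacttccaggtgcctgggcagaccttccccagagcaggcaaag
Tiam2, exon 26, chr17:3516519-3516725, plus strand: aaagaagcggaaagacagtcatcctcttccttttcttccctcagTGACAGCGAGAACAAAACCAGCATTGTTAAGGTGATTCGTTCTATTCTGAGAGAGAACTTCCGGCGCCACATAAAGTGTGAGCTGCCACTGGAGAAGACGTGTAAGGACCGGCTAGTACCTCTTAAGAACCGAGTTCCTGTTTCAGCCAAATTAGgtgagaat
Mamdc2, exon 3, chr19:23378669-23378868, minus strand: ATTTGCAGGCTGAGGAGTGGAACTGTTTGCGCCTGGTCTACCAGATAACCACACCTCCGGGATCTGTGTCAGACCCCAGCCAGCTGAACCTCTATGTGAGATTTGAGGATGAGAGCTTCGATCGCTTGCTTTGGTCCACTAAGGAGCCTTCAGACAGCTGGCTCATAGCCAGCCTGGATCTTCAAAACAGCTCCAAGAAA
Trio, exon 18, chr15:27846668-27846923, minus strand: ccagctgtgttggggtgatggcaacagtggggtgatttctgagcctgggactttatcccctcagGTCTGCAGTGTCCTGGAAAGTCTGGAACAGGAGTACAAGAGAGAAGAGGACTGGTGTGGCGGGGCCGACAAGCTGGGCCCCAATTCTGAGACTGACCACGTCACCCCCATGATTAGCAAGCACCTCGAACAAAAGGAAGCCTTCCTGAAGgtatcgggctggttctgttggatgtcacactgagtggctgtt
In Tnc, Fyco1, Tiam2 and Trio the site held a whole coding exon together with the ends of both flanking introns. The sites in Col12a1 and Col5a2 began inside an exon and ran across the 3′ edge of its CDS. The sites in Syne1 and Mamdc2 lay entirely inside an exon and were therefore in capitals throughout. The Tiam2 site held the ETS motif CCGGAAG and the Mamdc2 site the RUNX motif TGTGGTT, both on the opposite strand. The AP-1 motif TGANTCA was found in none of the 8.

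The label of the cells was compared with marker genes. A site had its middle within 1 kb of a TSS in 8 of 10 fibroblast markers, among them Col1a2, Col3a1, Vim and Pdgfra. Col1a1 and Prrx1 lacked one by this measure, but a TSS of each lay inside a wide site, of 22711 bp for Col1a1 and 7984 bp for Prrx1. Promoter sites were not listed for the blood markers Ptprc and Cd3e or for the neuronal markers Rbfox3 and Syp. They were likewise not listed for the pluripotency markers Nanog and Pou5f1. Among the 3 epithelial and 2 endothelial markers, Krt8 and Cdh5 had one.

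The first question was whether sites lay in coding exons more often than in introns. Coding exons carried 68.2 site middles per Mb of CDS, compared to 60.2 per Mb of intron under the same distance limits, a ratio of 1.13. Introns within 1 kb of a coding exon carried 47.4 per Mb, and the ratio to these was 1.44. Coding exons were thus denser in sites than the intron sequence next to them, on every chromosome. However, they also had a higher GC content, and neither ratio was above 1 when the intron was weighted to the GC content of CDS.

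Against all intron, the log2 ratio was 0.17 ± 0.28 (mean ± SD over 20 chromosomes) and above 0 on 14 of them (two-sided exact sign-flip permutation p = 0.0140, Benjamini-Hochberg adjusted p = 0.0168 over 6 tests). This call was lost without the narrowest 25% of sites (ratio 1.07, exact p = 0.260) and with sites less than 1 kb apart merged (1.05, p = 0.401), and outside repeats the ratio was 0.985 (exact p = 0.644). The log2 ratio ranged from -0.37 on chromosome 5, with 42.95 sites per Mb of CDS and 55.3 per Mb of intron, to 0.67 on chromosome 3, with 105.2 and 66.1. Against intron within 1 kb of CDS, the log2 ratio was 0.56 ± 0.31 and above 0 on 20 of 20 chromosomes (exact p = 1.91e-06, the smallest possible, adjusted p = 5.72e-06). It was lowest on chromosome 12, at 0.05, and highest on the X chromosome, at 1.25, where CDS had 20.3 sites per Mb and the intron next to it 8.55.

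Site density increased with GC content in each of these compartments up to 50 to 55% GC in windows of 200 bp. In windows of 45 to 50% GC, 88.6 sites per Mb were found in CDS, 80.5 in intron within 1 kb and 114.8 in all intron. In windows of 50 to 55% GC, the densities were 114.1, 114.8 and 167.9 per Mb. Above this, CDS had the lowest density, with 86.9 per Mb at 55 to 60% GC compared to 103.5 in intron within 1 kb. When intron was weighted to the GC classes of CDS, its density was 104.3 per Mb for all intron and 70.4 per Mb for intron within 1 kb. The ratio of CDS to all intron was then 0.654 and below 1 on all 20 chromosomes (log2 ratio -0.63 ± 0.22, exact p = 1.91e-06). The ratio to intron within 1 kb was 0.969, with 9 of 20 chromosomes above 1 (log2 ratio -0.04 ± 0.23, exact p = 0.400). This weighting was chosen after seeing the data. A further alternative required at least 50% of the bases of a coding-exon site to be CDS, which left 640 sites. The ratios were then 0.627 against all intron and 0.799 against intron within 1 kb. No such condition was set for intronic sites, and the bases counted were unchanged. The lower ratios thus follow largely from the condition and are no separate result.

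**Figure D1:**
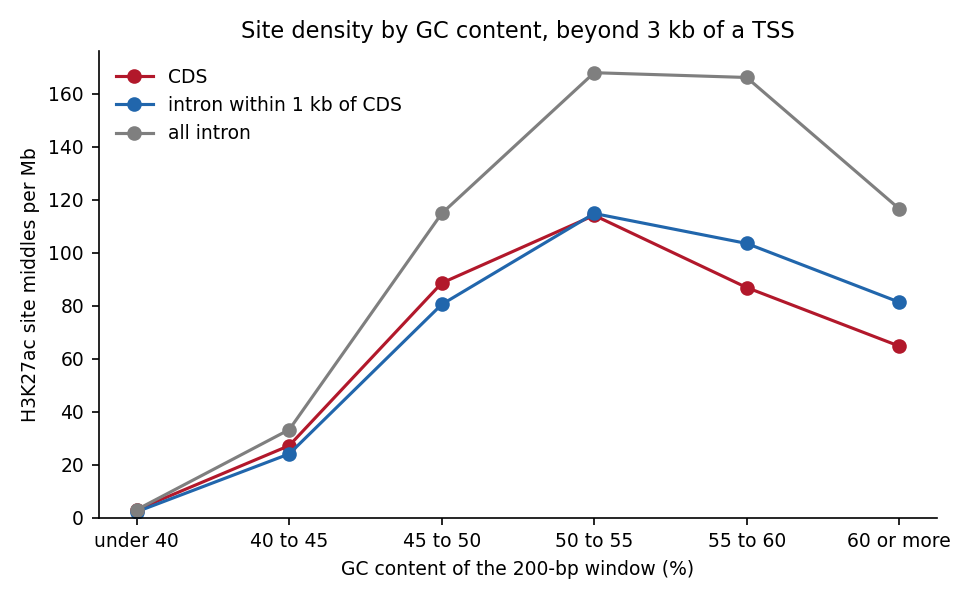
H3K27ac site middles per Mb (y axis) in CDS, in intron within 1 kb of CDS and in all intron, by the GC content of the surrounding 200 bp (x axis, in classes), all over 3 kb from a TSS. Density peaked at 50 to 55% GC in all 3 compartments, where CDS had 114.1 sites per Mb, intron within 1 kb 114.8 and all intron 167.9.

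**Figure D2:**
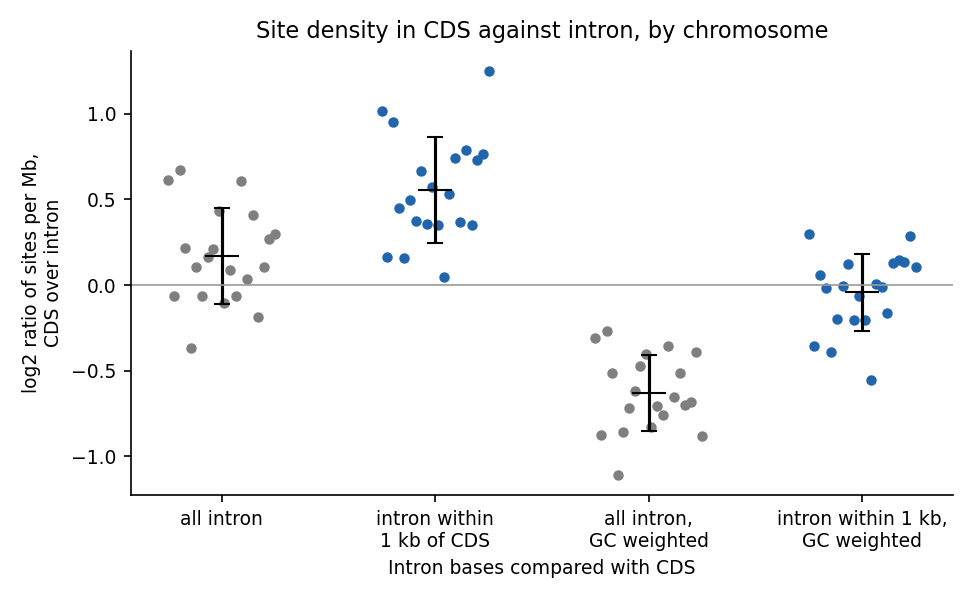
log2 ratio of sites per Mb in CDS over intron (y axis), for all intron and for intron within 1 kb of CDS, before and after weighting of intron to the GC content of CDS. Each point is 1 chromosome, in order from 1 to X within a column, and the bars give the mean ± SD over 20 chromosomes. All 20 points were above 0 against intron within 1 kb before weighting, and 9 were above 0 after it.

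The density changed within 1 kb of an exon. In intron, it was 42.4 sites per Mb in the first 250 bp from CDS, 44.8 from 250 to 500 bp and 52.9 from 500 bp to 1 kb. It reached 58.9 from 1 to 2 kb, 68.4 from 2 to 5 kb and 71.4 from 5 to 10 kb. CDS itself, with 68.2, was thus comparable to intron several kb away and above the intron next to it. Around the centres of 86339 internal coding exons of 100 to 200 bp, the density was 77.5 per Mb within 50 bp of the centre. It was 38.6 per Mb from 500 to 100 bp upstream and 40.2 from 100 to 500 bp downstream. The GC content was 50.0% within 50 bp of the centre and 43.2 and 43.6% in these flanks. From 1000 to 1500 bp away, the density was 48.3 per Mb upstream and 46.2 downstream.

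**Figure D3:**
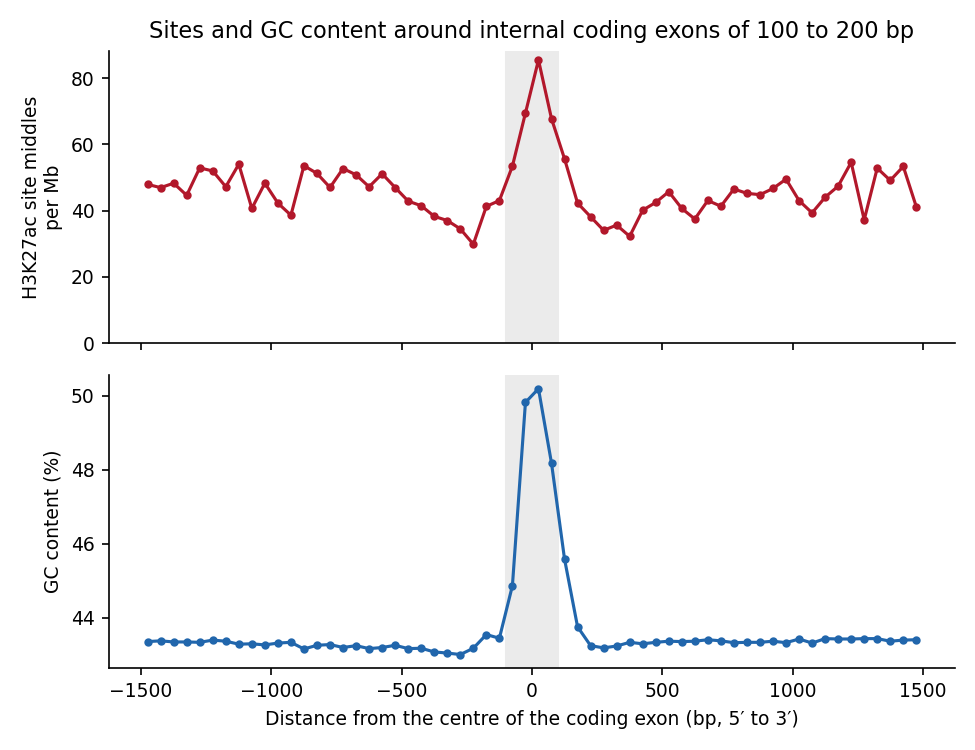
H3K27ac site middles per Mb (upper panel) and GC content in percent (lower panel) in steps of 50 bp from the centre of 86339 internal coding exons of 100 to 200 bp. Distances run 5′ to 3′ along the gene, and the shaded band marks 100 bp on either side. Both curves peaked at the exon, the density at 85.5 per Mb just downstream of the centre compared to 29.9 per Mb 250 to 200 bp upstream.

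A second view compared each internal exon with intron stretches of its own length on both sides. It was possible for 69631 exons with 9.49 Mb. The exons held 694 site middles, their upstream flanks 384 and their downstream flanks 440. The exons thus held 1.68 times as many as the mean flank, and the count was above the mean flank on 20 of 20 chromosomes. This ratio was not weighted for GC content.

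Regarding the distance to the next TSS, coding-exon sites lay between 3013 and 285723 bp from it, with a median of 10196 bp. The site nearest to the limit was located in exon 16 of Col3a1, and 64 sites were 3 to 3.5 kb from a TSS. The density in CDS was 62.1 per Mb at 3 to 5 kb from a TSS, 67.8 at 10 to 20 kb and 66.2 at 50 to 100 kb. Over the same distances, the density in all intron was 68.98, 68.2 and 41.8 per Mb. The density in all intron hence fell at large distances, and CDS density did not. In intron within 1 kb of CDS, the fall was smaller, with 47.4, 48.9 and 41.5 per Mb. The CDS value at 50 to 100 kb came from 47 sites. Beyond 100 kb, CDS had 107.3 per Mb, from 27 sites, all intron 25.8 and intron within 1 kb 25.96.

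Next, the position in the exon was analysed. For 1106 of the 1157 sites (95.6%) the middle was in CDS of the principal transcript of the gene. Of these, 906 (81.9%, 95% Wilson interval 79.5 to 84.1%) were in internal coding exons, 145 in the last, 41 in the first and 14 in the only coding exon. Per Mb of eligible CDS this corresponded to 82.1 sites in first, 69.5 in internal, 59.6 in last and 27.6 in only coding exons. The site held the whole coding exon in 750 of 1106 cases (67.8%), crossed 1 edge of it in 246 (22.2%) and was entirely inside it in 110 (9.95%). Most sites touched 1 coding exon of the principal transcript (1051 of 1157), while 44 touched 2, 16 touched 3 or more and 46 touched only CDS of other transcripts. The median share of CDS in a site was 51.9%, and 123 sites consisted only of CDS.

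The exons were mostly short. Their median CDS length was 168 bp, and 684 of 1106 sites (61.8%) were in exons of 200 bp or less. All eligible coding exons with a site had a median length of 166.5 bp and a median GC content of 52.9%, compared to 127 bp and 49.65% for exons without. The share of exons with a site was 0.419% below 100 bp and 4.45% at 1000 bp or more. Per Mb, the density was 59.0 below 100 bp, 79.3 at 100 to 149 bp and 80.6 at 200 to 499 bp. It was 38.2 in exons of 1000 bp or more. The median position of a site was at 73.5% of the gene from its 5′ end, with sites near TSSs left out by definition. The position of eligible CDS is not given here for comparison.

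Coding-exon sites were somewhat narrower than intronic sites. They measured 334 bp at the median, with quartiles of 242 and 531 bp, while all intronic sites measured 368 bp, with quartiles of 254 and 614 bp. The ratio of the medians was 0.908, and the log2 ratio per chromosome was -0.12 ± 0.17 (SD, n = 20 chromosomes), below 0 on all but 4 chromosomes (exact p = 0.00484, adjusted p = 0.00726). Compared to intronic sites within 1 kb of CDS, with a median of 346 bp, the ratio was 0.965 and did not pass the test (exact p = 0.381, an alternative chosen after seeing the data). The narrowest possible width of 200 bp was found for 77 coding-exon sites (6.66%) and 6.65% of intronic sites. Widths above 2000 bp were found for 27 (2.33%) and 3.09%, respectively.

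The excess of CDS over the intron within 1 kb was present in each class of width. The ratio of densities was 1.49 for sites of 200 to 250 bp, with 315 coding-exon sites, and 1.55 for 251 to 400 bp, with 403. It was 1.36 for 401 to 800 bp, with 290, and 1.26 for wider sites, with 149. Against all intron, the ratio was 1.29 in the narrowest class and 0.864 in the widest. These ratios were not weighted for GC content.

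The sites themselves also differed in base composition. The mean GC content was 50.7% in coding-exon sites and 48.4% in intronic sites. The difference per chromosome was 2.39 ± 1.02 percentage points (SD, n = 20) and positive on all 20 (exact p = 1.91e-06, adjusted p = 5.72e-06). It was smallest on chromosome 17, at 0.789, and largest on chromosome 5, at 5.17. The rule itself places CDS in these sites. Around the internal exons above, GC content was 50.0% at the centre and 43.2 and 43.6% in the flanks. A higher GC content of the sites thus follows at least in part from the rule, and the test cannot separate a further difference from it. Repeats made up a median of 5.51% of a coding-exon site and 11.4% of an intronic one.

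Neighbouring sites were then compared. Most coding-exon sites had other sites of the same gene nearby. The nearest site was in the same gene for 1101 of 1157 (95.2%), and it was intronic for 787 (68.0%). For 143 sites (12.4%) the nearest site was within 3 kb of a TSS, and for 116 (10.0%) it was another coding-exon site. In 1032 cases the host gene had an intronic site under the same limits, the nearest at a median of 637 bp (quartiles 219 and 2680 bp). An intronic site of the host less than 1 kb away was found for 619 sites (53.5%), and 125 (10.8%) had no intronic site in the host.

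Still, coding-exon sites were less often near another site than intronic ones. A further site less than 1 kb away was present for 776 (67.1%) coding-exon sites and 73.3% of intronic sites. The difference per chromosome was -6.67 ± 7.49 percentage points (SD, n = 20) and positive on 3 chromosomes (exact p = 0.000197, adjusted p = 0.000393). Intronic sites within 1 kb of CDS had a neighbour in 69.4%, a difference of -2.29 percentage points that did not pass the test (exact p = 0.124, chosen after seeing the data). When sites less than 1 kb apart were stitched together, 24.5% of coding-exon sites and 29.1% of intronic sites were in groups of 5 or more.

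Short motifs were searched on both strands in the middle 200 bp of each site, and a match describes letters only, not binding. AP-1 factors, which include Fos and Jun, are active in fibroblasts. For them TGANTCA was searched, which allows any middle base and so may match sequences that they do not bind. This motif was found in 76 coding-exon sites (6.57%) and 8.53% of intronic sites, and in 4.76% of windows on coding exons without a site. The difference between coding-exon and intronic sites was -1.83 ± 3.76 percentage points per chromosome (SD, n = 20), with 6 chromosomes above 0 (exact p = 0.0428, adjusted p = 0.0428). It missed the threshold under 5 of 11 alternatives, with exact p = 0.0523 without chromosome X, 0.0690 without the narrowest 25% of sites, 0.105 beyond 5 kb of a TSS, 0.131 with at least 50% CDS and 0.396 for sites of 300 to 600 bp. The TEAD motif GGAATG was present in 13.4% of coding-exon sites, 12.4% of intronic sites and 10.6% of coding exons without a site. For the ETS motif CCGGAAG the shares were 2.42, 0.890 and 2.13%. For the SP/KLF motif GGGCGG they were 4.93, 3.33 and 3.89%, and for the RUNX motif TGTGGTT 3.80, 5.30 and 3.54%. The ETS, SP/KLF and RUNX shares of coding-exon sites were thus closer to those of other coding exons than to those of intronic sites. The AP-1 share was so by a small margin, and the TEAD share was closer to that of intronic sites. The rule places the middle of each coding-exon site in CDS. The AP-1 test therefore cannot separate a property of these sites from one of coding sequence. The TEAD, ETS, SP/KLF and RUNX shares were not tested.

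The sites were located in 830 host genes, which was 5.88% of the 14116 protein-coding genes with eligible CDS. A single coding-exon site was found in 639 hosts, 2 sites in 122, 3 in 43 and 4 or more in 26. Hosts were long genes with many exons. Their median gene length was 71.4 kb compared to 30.4 kb for the other genes, their CDS 2284 bp compared to 1461 bp, and they had 15 compared to 9 exons. The share of hosts rose from 1.25% among genes with the least eligible CDS to 17.4% among those with at least 2535 bp. The density per Mb of CDS remained between 62.4 and 72.0 across these classes.

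Most hosts also carried H3K27ac at a promoter. A site with its middle within 1 kb of a TSS was found for 705 of 830 hosts (84.9%, 95% Wilson interval 82.4 to 87.2%). The share was 60.7% (59.8 to 61.5%) for genes that were not hosts. By this measure a wide site over a TSS may not count, as was the case for Arhgef17. Genes with a promoter site had 94.1 coding-exon sites per Mb of CDS and those without 23.9. The density of intronic sites showed the same order, with 85.9 and 16.8 per Mb. An intronic site under the same limits was present in 715 hosts (86.1%) and in 34.8% of the other genes. Hosts were also the longer genes, and these shares were not adjusted for gene length. The intervals cover counting error only.

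Host genes with several coding-exon sites are described next. Col12a1, which encodes a collagen that associates with fibrils, had 18 sites, the most of any gene. They overlaid exons 9 to 65 of 66 and were 200 to 488 bp wide, with a median of 269.5 bp. In 12 of them the whole exon was inside the site, and 2 were entirely inside an exon. Introns of Col12a1 carried 44 further sites, and for 13 of the 18 an intronic site was less than 1 kb away. The GC content of these 18 sites ranged from 41.8 to 56.8%, so that many were below the mean of all coding-exon sites.

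Col5a2, which encodes a chain of fibrillar collagen V, had 12 sites of 217 to 449 bp over exons 2 to 51 of 54. The whole exon was inside the site in 11 of them, and the exons were short, for example 108 bp for exons 43, 44, 46, 48 and 50. Their GC content was low, at 40.2 to 49.7%. Introns of Col5a2 carried 46 sites. Tnc encodes the matrix glycoprotein tenascin C. Its 9 sites, of 244 to 811 bp, were over exons 2, 3, 5, 7, 11 and 17 to 20 of 25. Those over exons 17 to 20 lay apart from the intronic sites of the gene under the same limits, the nearest being 4852 to 10184 bp away. The nearest site to each of these 4 exons' sites was another coding-exon site.

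**Figure D4:**
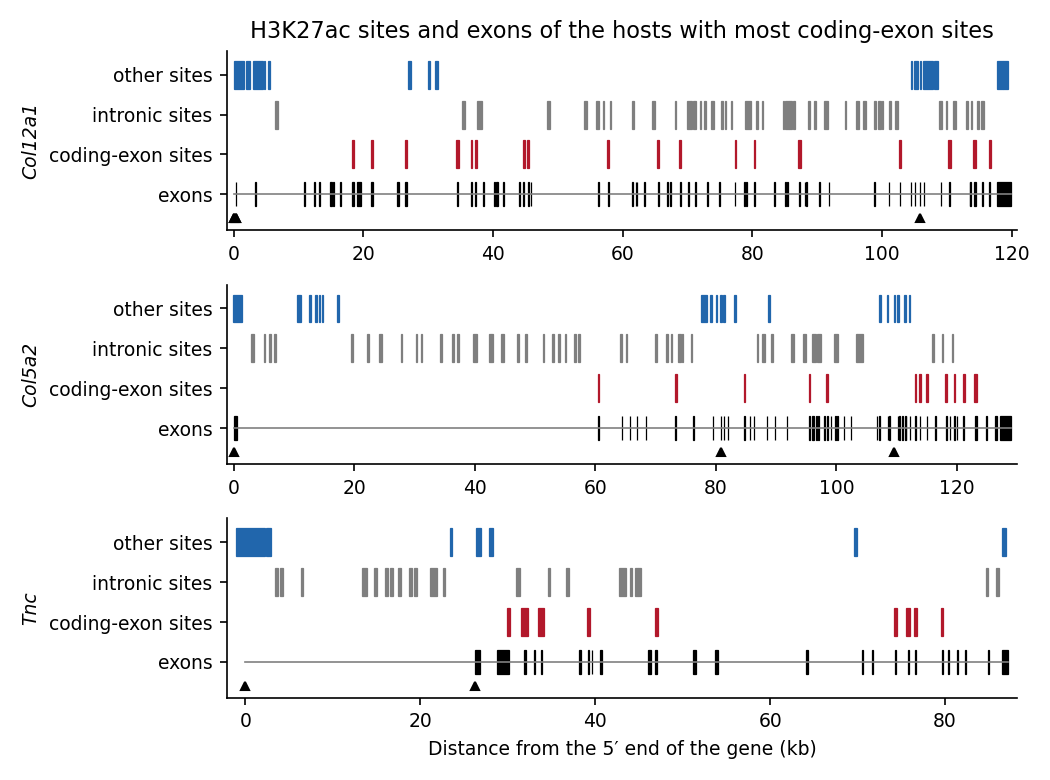
Exons of the principal transcript (black), TSSs (triangles) and H3K27ac sites along Col12a1, Col5a2 and Tnc, drawn to scale in kb from the 5′ end of the gene. Red bars are coding-exon sites (18, 12 and 9), grey bars intronic sites under the same limits (44, 46 and 21) and blue bars other sites (15, 20 and 8), which lie near a TSS, near the 3′ end or in other exons. Red bars start at 18.3, 60.5 and 29.9 kb and grey bars at 6.37, 2.83 and 3.36 kb from the 5′ end. Exon 2 of Col5a2 starts only at 60.41 kb, and exon 1 of Tnc at 26.29 kb, beside a TSS. In Col5a2 and Tnc the later start of the red bars thus follows largely from where eligible CDS begins. In Col12a1 this is not so, since exons 3 to 8, at 10.9 to 16.61 kb, come before the first red bar.

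Syne1, which links the nuclear envelope to the cytoskeleton, had 7 sites spread over exons 45 to 143 of 146. The intronic site next to them was 140 to 13346 bp away. Ltbp1 encodes a matrix protein that binds latent TGF-β, and its 6 sites were accompanied by 150 intronic sites. Adamts6, encoding a secreted metalloprotease, had 6 sites toward its 3′ end, in exons 13 to 24 of 25, each holding a whole exon. Fyco1, an adaptor for the transport of autophagosomes, had 5 sites. The splicing factor gene Sf3b3 also had 5, and all of them belonged to a run of 14 sites that were each less than 1 kb from the next. Tiam2, which encodes an activator of the GTPase Rac, and Mamdc2, which encodes a protein with MAM domains, had 5 sites each. In these 10 genes the median width of the coding-exon sites was between 268 and 507 bp.

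Gene lists were then compared with the value for all genes, in which 5.88% were hosts and CDS had 68.0 sites per Mb. No test was made on these lists. Among 44 collagen genes, 13 were hosts (29.5%), and their CDS had 390.5 sites per Mb from 54 sites. The intron within 1 kb had 111.7 per Mb in the same genes, so that CDS was 3.497 times as dense. The GC content of this CDS was 56.6% and that of the intron 43.2%. Col12a1 and Col5a2 contributed 30 of the 54 sites. The other hosts included Col3a1 with 5 and Col5a1 with 4, both encoding fibrillar collagens. The sites in Col5a1 were 684 to 1347 bp wide and close to intronic sites, the nearest of which were 5 to 544 bp away.

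Of 32 genes for matrix glycoproteins and proteoglycans, 14 were hosts (43.75%), with 270.3 sites per Mb of CDS and 144.7 per Mb of intron within 1 kb. Beside Tnc and Ltbp1, they included Fbn1, which encodes fibrillin 1 of microfibrils, and Fn1, which encodes fibronectin, with 4 sites each. Of 29 genes for plakins, spectrins, filamins and other cytoskeletal linkers, 14 were hosts (48.3%). Their CDS had 179.5 sites per Mb, close to the 165.3 of the intron next to it. Beside Syne1, they included Utrn and Ahnak with 5 sites each. The 5 sites in Ahnak consisted entirely of CDS.

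Genes for growth factor receptor kinases were closer to the average. Of 26 such genes, 3 were hosts, namely the collagen receptor gene Ddr2 with 2 sites, and Igf1r and Fgfr1 with 1 each. Their density was 67.4 per Mb of CDS, near that of all genes, and 68.6 per Mb in the intron within 1 kb.

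**Figure D5:**
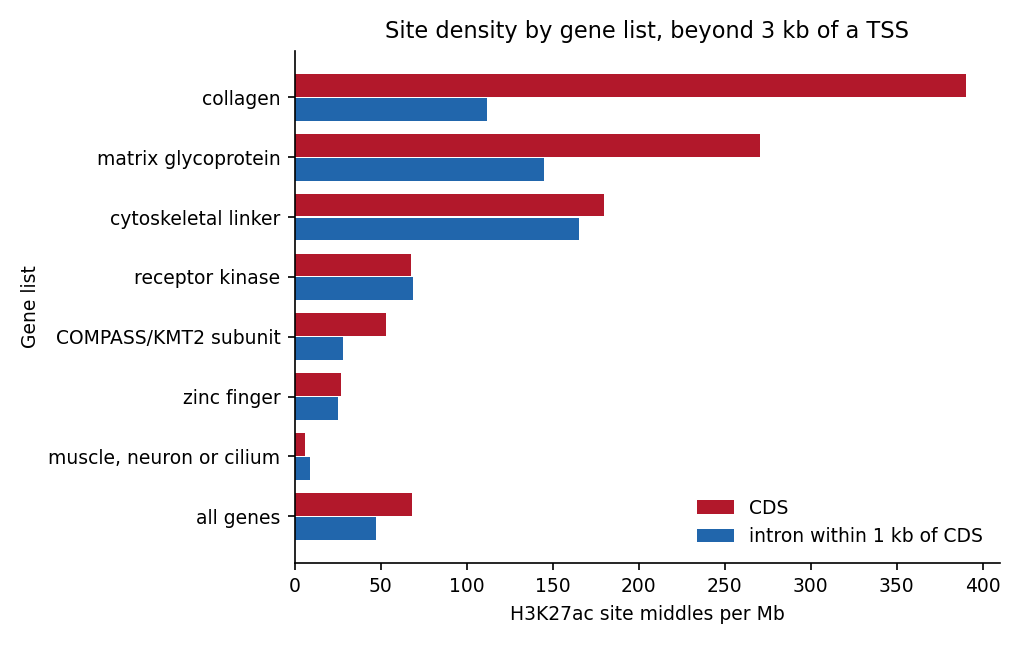
H3K27ac site middles per Mb (x axis) in CDS (red) and in intron within 1 kb of CDS (blue) for 7 gene lists and for all genes (y axis), all over 3 kb from a TSS. Collagen genes had the highest density in CDS, at 390.5 per Mb, and large genes of muscle, neuron or cilium the lowest, at 5.58. The bar for all genes, at 68.2, counts CDS that genes share once.

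Subunits of COMPASS/KMT2 complexes, to which ASH2L belongs, were considered because ASH2L was the degraded protein. Of 13 such genes, 13 had a promoter site, compared to 62.1% of all genes with eligible CDS, and 2 were hosts (15.4%). Their CDS had 53.0 sites per Mb, from 2 sites, below the 68.0 of all genes. The intron within 1 kb had 27.7 per Mb. Kmt2a, which encodes a methyltransferase of these complexes, had a site of 329 bp that held exon 16 of 36. Ash2l itself had a site of 361 bp at chr8:25817291-25817651, which held the last coding exon, number 16, and reached into a second one. It was thus apart from exon 4, the exon deleted in these cells. Whether reads from the human ASH2L transgene were aligned to this site was not tested. Its CDS share was 42.4% and its GC content 45.7%. The nearest other site was 5427 bp away and within 3 kb of a TSS, and the introns of Ash2l carried 0 sites under the same limits.

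At the other end were genes with much CDS but few sites. Of 30 large genes of muscle, neuron or cilium, 5 had a promoter site and 2 were hosts. These were Cacna1a, which encodes a neuronal calcium channel, and Ryr2, which encodes the calcium release channel of heart muscle, with 1 site each. Their 358.4 kb of CDS hence had 5.58 sites per Mb, and the intron next to it 8.79. Of 310 zinc finger genes, 8 were hosts (2.58%), although 256 had a promoter site. The density was 26.6 per Mb of CDS and 24.97 per Mb of the intron within 1 kb. Zfp827, Zfp503 and Zfp940 had 2 sites each, in the last coding exon for Zfp503 and Zfp940.

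Few coding-exon sites were wide. The widest was 8799 bp and held the first coding exon of Arhgef17, of which 3171 bp were CDS. Arhgef17 encodes a guanine nucleotide exchange factor, and its site was 28 bp from an intronic site. The middle of this site was 3343 bp from the next TSS, but the site was so wide that a TSS of Arhgef17 lay inside it, and it was the only coding-exon site of this kind. The following were a site of 4643 bp in exon 34 of Trio, which encodes an activator of Rac, and one of 4142 bp across 4 coding exons near the 3′ end of Cacna1a, whose edge came within 1363 bp of a TSS. Foxn1, known as a transcription factor of thymic epithelium, and Sbno2, a transcriptional regulator, had sites of 4103 and 3941 bp. CDS made up between 5.26% of the site in Trio and 36.0% in Arhgef17. In such wide sites the exon was thus a small part of the region.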

How the data were processed

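H3K27ac ChIP-seq was carried out by the authors on 14 libraries. Trim Galore served for trimming and BWA for alignment to mm10. Reads were filtered by ENCODE criteria, replicates were combined by means of Picard, and narrow peaks came from MACS, whose version and threshold were not given in the sources used here. The deposited values are positions in base pairs (chromosome, start, end), joined over all samples. How they were joined was not stated, so a width may exceed that in any sample. Changes over time were not analysed here.

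Starts were read as counted from 0, since the narrowest sites then measured 200 bp, and are printed counted from 1. Sequence was GRCm38.p6, annotation GENCODE M21, an earlier release than the authors used. The principal transcript was that ranked first by APPRIS, ties by CDS length. Intron was not exonic in any transcript. GC weighting used 6 classes of 200-bp windows. Tests were two-sided exact sign-flip permutation tests over 20 chromosomes, adjusted over 6 tests after Benjamini-Hochberg. Neighbouring sites and chromosomes share cells, libraries and peak calling, so p-values measure the spread between chromosomes of this list only. Procedures were tested on simulated data. Python 3.11.15, numpy 2.4.6 and matplotlib 3.10.9 were used.

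Genes named were the 10 hosts with most sites, hosts of the 5 widest sites and up to 4 hosts per gene list. Sites printed as sequence had at most 300 bp and no UTR. Regions, members, lists and tests were chosen with earlier results of these data known. Alternatives comprised other distances, TSSs, CDS definitions and subsets of sites. Some genes and gene lists covered by this rule are not reported here.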

Additional observations from a re-analysis of the deposited data

How the results depend on the processing

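Of 77 alternatives, 57 kept the direction and the side of the threshold, a count within 1.5 times the main one, or a share within its Wilson interval. The number of sites ranged from 512 to 1659, the latter with TSSs of protein-coding transcripts only, and was 1597 beyond 1 kb and 928 beyond 5 kb of a TSS and 787 without the narrowest 25%. The excess in GC content of coding-exon sites held in all 10 run for it, from 1.58 to 3.11 percentage points. It follows at least in part from the rule, which places CDS in these sites. The 9 alternatives chosen after seeing the data were GC weighting, sites of 300 to 600 bp and intronic sites within 1 kb of CDS. With at least 50% of bases inside CDS, 640 sites were left, and the density ratios were 0.627 against all intron and 0.799 against intron within 1 kb. This condition applied to coding-exon sites only, so that it lowered these ratios largely by itself. With GC weighting the density ratios were 0.654 and 0.969. Outside repeats, the ratio to all intron was 0.985 (exact p = 0.644). It missed the threshold without the narrowest 25% of sites (1.07), with sites less than 1 kb apart merged (1.05) and for sites of 300 to 600 bp (1.13). Merging left 512 sites. Against intronic sites within 1 kb, the width ratio was 0.965 and the difference in neighbours -2.29 percentage points. The AP-1 difference missed the threshold beyond 5 kb of a TSS (-1.90), with at least 50% CDS (-2.13), without the narrowest 25% (-2.15), without chromosome X (-1.97) and for sites of 300 to 600 bp (-2.24). The share of hosts with a promoter site was 88.2% with TSSs of protein-coding transcripts, 73.3% with merged sites and 89.0% with a promoter window of 3 kb. The causes of these shifts were not tested. Neighbours were not compared in merged sites, which have none within 1 kb by construction. Read depth was unknown. No paired analysis was possible because sites carry positions only, without values per library.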

Other observations

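Coding-exon sites were also found in collagen genes without a site whose middle was within 1 kb of a TSS. Whether a wider site covered a TSS of these genes is not given here. Col4a3, which encodes a chain of basement membrane collagen, had 2 sites with a summed width of 966 bp and 9 intronic sites. Col22a1, Col24a1 and Col14a1 had 1 coding-exon site each, of 514, 445 and 200 bp, and 8, 6 and 11 intronic sites. Among the cytoskeletal linkers, Flna had a coding-exon site of 205 bp and 0 intronic sites under the same limits, while Vcl, which encodes the focal adhesion protein vinculin, had 1 of 296 bp and 36 intronic sites. Among the matrix genes, Thbs1 had a coding-exon site of 2453 bp and Hmcn1, with 15098 bp of eligible CDS, had 1 of 234 bp. The genes of this paragraph were chosen after their values were seen.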
